A study of Homo sapiens with 2 samples.

Results

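Small nucleolar RNA (snoRNA) host genes and a set of well-known long non-coding RNAs (lncRNAs) were described in CHME3 cells, a human line that was immortalised and that the labels give as microglia. A gene was a member when its name was SNHG followed by a number, or when it was among 19 lncRNA names. The files held 39 such genes of 26370, of which 21 were SNHG genes and 18 were taken by name. CYTOR is listed there under its older name, LINC00152. The series compared CHME3 cells treated with antagonists of muscarinic acetylcholine receptors (5 µg/ml, labelled as the EC50) with untreated cells, all of this single line at passages 4 to 6. The compound and the time of exposure are not named in the labels. There was 1 library of treated and 1 of untreated cells, so no difference below has a replicate check and no test between the conditions was possible.

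A snoRNA host gene is transcribed as a spliced RNA whose introns carry snoRNAs, short RNAs that guide the methylation or pseudouridylation of ribosomal RNA. The introns are processed to mature snoRNAs, while the spliced host RNA, which often has little coding capacity, is exported and in several cases is degraded by nonsense-mediated decay (NMD). Some lncRNAs stay in the nucleus: MALAT1 is enriched in nuclear speckles, and NEAT1 is the scaffold of paraspeckles. Others are made from imprinted loci (H19, MEG3, KCNQ1OT1) or carry microRNAs (MIR22HG, MIR31HG, DLEU2).

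The treated library held an estimated 7300511 fragments and the untreated library 6814801. At least 1 FPKM (fragments scaled to transcript length and to sequencing depth) was listed for 11652 genes in treated and 11637 in untreated cells. Of 12 microglial markers, 2 averaged at least 1 FPKM, CD68 among them, while AIF1, TMEM119, CX3CR1, ITGAM, PTPRC and TYROBP were listed at 0 in both libraries. The 12 summed to 69.9 FPKM in treated and 77.7 FPKM in untreated cells. Residual ribosomal RNA differed between the libraries: RNA18S5 was listed at 759 FPKM in treated and 363 FPKM in untreated cells, and RNA28S5 at 504 and 456 FPKM in treated and untreated cells. Its part in the results below was not tested.

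The highest members were mostly snoRNA hosts, as were most members. In each library 9 of the 10 highest members were hosts, as were 24 of the 34 members that averaged at least 1 FPKM. At least 100 FPKM in both libraries was listed for 7 members. The share of all genes at that level was not computed. These counts include SNHG25, which rests on an estimated 4 fragments in each library. Of the 39 members, 34 averaged at least 1 FPKM over the libraries, the floor used below, against 11668 of all genes. No member differed by 1.5-fold or more in either direction on the log2((treated FPKM + 1)/(untreated FPKM + 1)) scale. Over all genes above the floor, 1.2% passed 1.5-fold on the higher side and 1.03% on the lower side, and 0.351% and 0.309% passed 2-fold higher and lower. The median log2 ratio was -0.03 for the members, with 16 higher and 18 lower, and 0.00 for all genes. A 95% interval on the FPKM ratio from the estimated fragments, which covers counting error only, lay wholly below 1 for 5 of 34 members (14.7%), against 6.02% of all genes. These were MALAT1, SNHG6, LINC00152, SNHG5 and SNHG3. It lay wholly above 1 for 0 members, against 6.43% of all genes. Among the 19 members with at least 100 fragments in each library, the 5 below 1 made up 26.3%, against 7.15% of 8130 genes of that depth, and 0 lay above 1, against 6.84%.

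**Figure D1:**
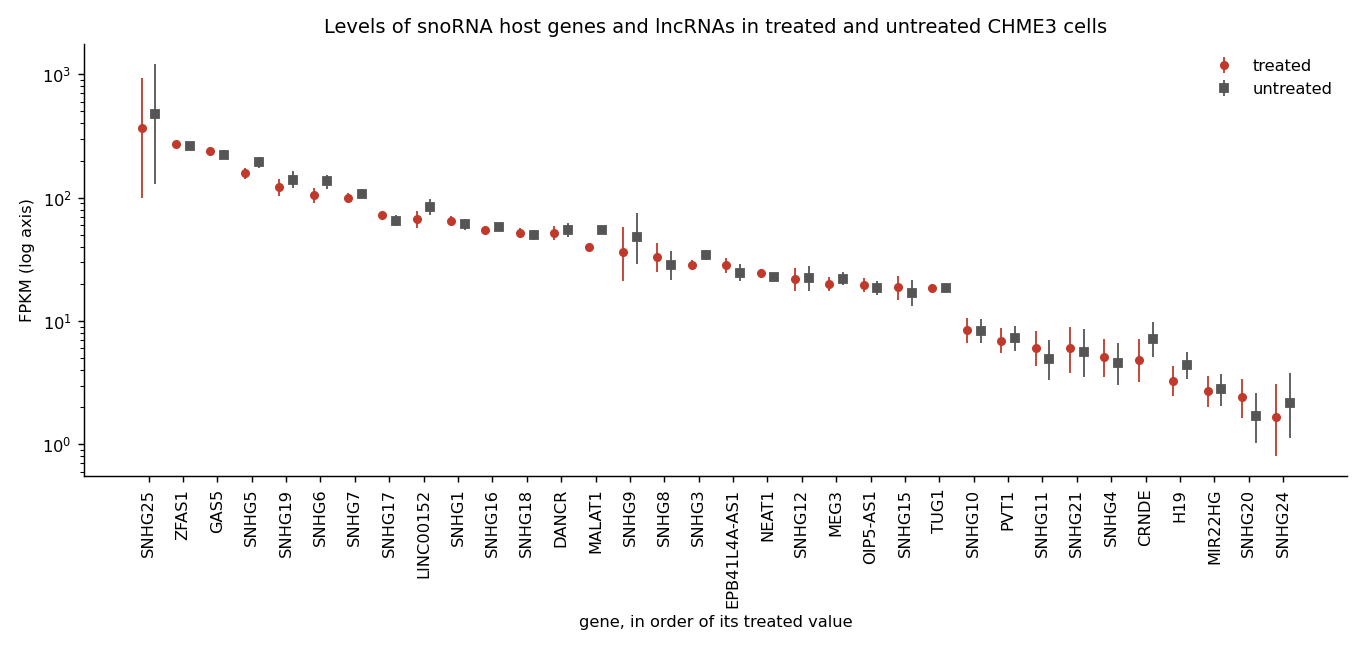
FPKM (log axis) of the 34 members that averaged at least 1 FPKM, in treated (red circles) and untreated (grey squares) cells, 1 library each, in order of the treated value. Bars are 95% Poisson intervals of the estimated fragments. SNHG25 tops the order on 4 fragments in each library, followed by ZFAS1, GAS5 and SNHG5, and SNHG24 and SNHG20 stand at the low end.

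The order of levels was led in both libraries by SNHG25, ZFAS1, GAS5, SNHG5, SNHG19, SNHG6 and SNHG7. SNHG25, the host of SNORD104, was listed at 364 FPKM in treated and 476 FPKM in untreated cells, but its transcript is 111 bases long and each value rests on an estimated 4 fragments. Its ratio interval ran from 0.142 to 4.11. ZFAS1, the host of SNORD12, SNORD12B and SNORD12C, had 270.1 FPKM in treated and 261 FPKM in untreated cells. GAS5, a growth-arrest gene that carries 10 snoRNA records and whose RNA is a classic NMD substrate, had 237 FPKM in treated and 223 FPKM in untreated cells. The counting intervals of ZFAS1 and GAS5 overlapped in the treated library and did not in the untreated library. Both ratios held 1 within their interval, at 1.04 (0.952 to 1.12) for ZFAS1 and 1.06 (0.944 to 1.20) for GAS5.

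SNHG5, SNHG6 and SNHG3 were the snoRNA hosts that were lower in treated cells by more than counting error, judged by the ratio interval. The bounds deposited with the transcripts of SNHG5, SNHG6 and SNHG3 overlapped between the libraries. SNHG5, which carries SNORD50A and SNORD50B, had 158 FPKM in treated and 193 FPKM in untreated cells, a ratio of 0.819 (0.711 to 0.945). SNHG6, the host of SNORD87, had 105 FPKM in treated and 135 FPKM in untreated cells, a ratio of 0.774 (0.638 to 0.941). SNHG3, which carries the pseudouridylation-class snoRNAs SNORA73A and SNORA73B, had 28.4 FPKM in treated and 34.2 FPKM in untreated cells, a ratio of 0.829 (0.726 to 0.947). SNHG5 lies at chr6:85677007-85678733 (minus strand, 6 exons) and SNHG3 at chr1:28505943-28510892 (plus strand) on hg38. SNHG5 and SNHG6 transcripts are 507 and 472 bases long. The members with main transcripts of 300 to 650 bases and at least 100 fragments were GAS5, LINC00152, SNHG19, SNHG5 and SNHG6. Their median log2 ratio was -0.29, which is the value of SNHG5. The 121 genes of that length and depth, these members among them, had a median of -0.03. The 5th percentile of the 121 genes is again the value of SNHG5, so it is no separate comparison. SNHG3 shares 10.7% of its exon bases with RCC1 on the same strand, a nuclear exchange factor gene that had 37.2 FPKM in treated and 36.0 FPKM in untreated cells.

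SNHG19, the host of SNORD60, had 122 FPKM in treated and 140 FPKM in untreated cells, with a ratio interval of 0.694 to 1.09. SNHG7, the host of SNORA17 and SNORA43, had 100.2 FPKM in treated and 108 FPKM in untreated cells (ratio interval 0.825 to 1.04). SNHG9, which lies 170 bases from the ribosomal protein gene RPS2, had 36.4 FPKM in treated and 48.2 FPKM in untreated cells, from 17 and 19 fragments on a 233-base transcript. SNHG24, which spans 15 records of the imprinted SNORD114 cluster, had 1.66 FPKM in treated and 2.16 FPKM in untreated cells. All 4 were lower in treated cells by less than counting error allows to tell.

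The hosts with many fragments and near-equal values were SNHG16, SNHG1, SNHG17, SNHG18 and DANCR. SNHG16, the host of SNORD1A, SNORD1B and SNORD1C, had 54.3 FPKM in treated and 57.6 FPKM in untreated cells (ratio interval 0.860 to 1.04). SNHG1, which carries 8 snoRNA records, had 64.3 FPKM in treated and 61.0 FPKM in untreated cells (0.916 to 1.21). SNHG17, with 4 records of the SNORA71 family, had 71.7 FPKM in treated and 65.1 FPKM in untreated cells (0.962 to 1.26). SNHG18, the host of SNORD123, had 51.9 FPKM in treated and 49.9 FPKM in untreated cells (0.913 to 1.19). DANCR, an lncRNA named for opposing differentiation and the host of SNORA26, had 51.8 FPKM in treated and 54.7 FPKM in untreated cells (0.787 to 1.13). The intervals of these 5 leave out a 1.5-fold difference in either direction, as far as counting goes.

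On the higher side, SNHG20 had the highest log2 ratio of any member, 0.34, at 2.41 FPKM in treated and 1.69 FPKM in untreated cells. It rests on 32 and 20 fragments in treated and untreated cells, its ratio interval was 0.805 to 2.68, and 24.4% of its exon bases are shared with SEC14L1 on the same strand, which had 68.0 FPKM in treated and 73.4 FPKM in untreated cells. SNHG11 had 6.05 FPKM in treated and 4.91 FPKM in untreated cells (0.757 to 2.07). EPB41L4A-AS1, the host of SNORA13, had 28.2 FPKM in treated and 24.7 FPKM in untreated cells (0.926 to 1.41). SNHG8, the host of SNORA24, had 33.1 FPKM in treated and 28.5 FPKM in untreated cells (0.785 to 1.71), a log2 ratio of 0.21 that turned to -0.36 when only transcripts of at least 300 bases were summed.

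The remaining hosts were SNHG15, SNHG12, SNHG10, SNHG21 and SNHG4. SNHG15 had 18.7 FPKM in treated and 17.0 FPKM in untreated cells (0.788 to 1.53). SNHG12, which carries 4 snoRNA records, had 21.9 FPKM in treated and 22.2 FPKM in untreated cells (0.717 to 1.36). SNHG10, the host of the Cajal body RNA SCARNA13, had 8.44 FPKM in treated and 8.36 FPKM in untreated cells (0.729 to 1.41). SNHG21 had 5.99 FPKM in treated and 5.63 FPKM in untreated cells, and SNHG4 had 5.09 FPKM in treated and 4.57 FPKM in untreated cells. Of the exon bases of SNHG4, 38.9% are shared on the same strand with MATR3, a nuclear matrix protein gene at 76.2 FPKM in treated and 76.1 FPKM in untreated cells. SNHG21 shares 34.1% of its exon bases with FSD2 on the opposite strand, which was listed at 0 in treated and 0.145 FPKM in untreated cells. The ratio interval of each of these 5 held 1. Over the 24 hosts above the floor, 13 were higher and 11 lower, with a median log2 ratio of 0.03, which turned to -0.02 on estimated fragments scaled to depth alone and to -0.08 among the 13 hosts with at least 100 fragments in each library.

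**Figure D2:**
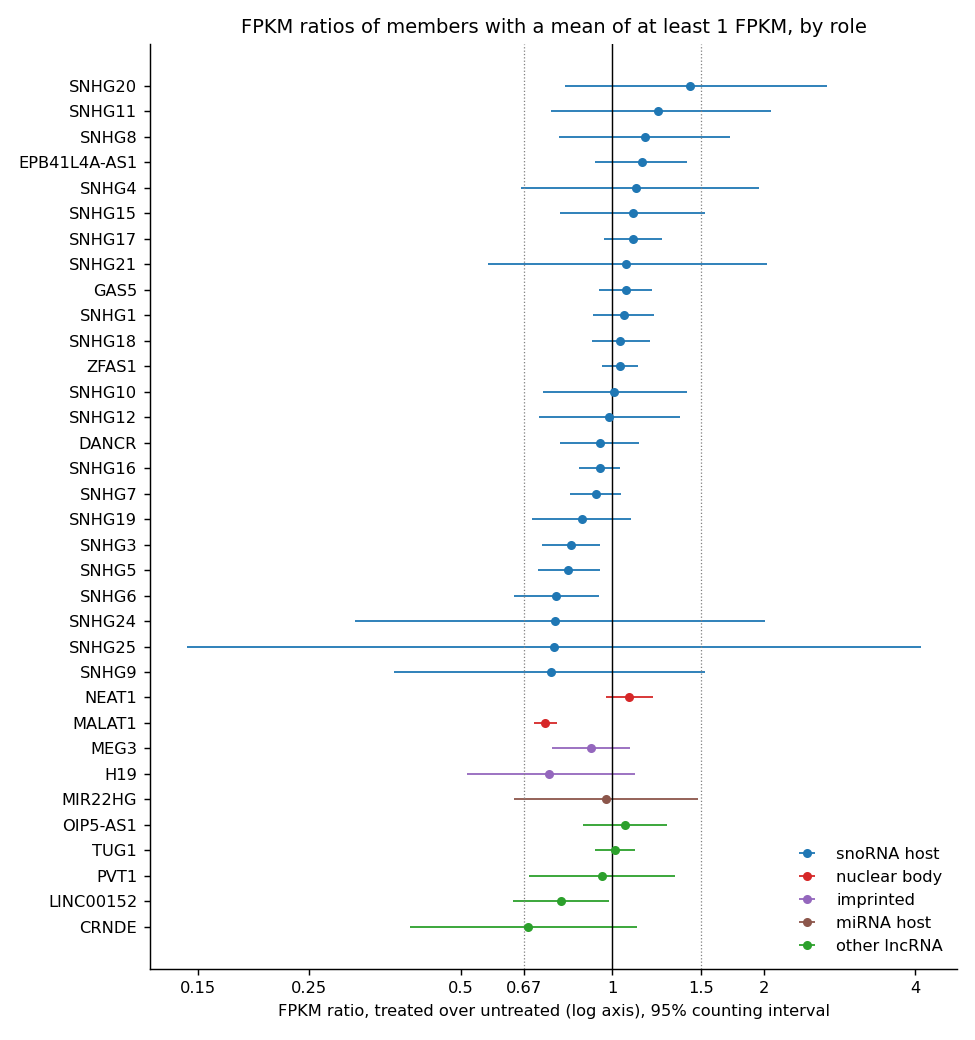
Ratio of treated over untreated FPKM (log axis) for the 34 members above the floor, grouped by role, with 95% counting intervals. Dotted lines mark 1.5-fold in each direction. The intervals of MALAT1, LINC00152, SNHG3, SNHG5 and SNHG6 lie wholly below 1 and 0 lie wholly above it.

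The introns of snoRNA hosts hold the guide RNAs. All 25 snoRNA host members had a record of such a small RNA inside their range on the same strand. The members were put in this role by name, so this follows from the choice. Whether each record lay in an intron was not checked. There were 69 of these records, 43 to 421 bases long, and 62 were listed at 0 in both libraries. Likewise 12 of 13 microRNA records inside members were listed at 0 in both. The host values are those of the records of the host transcripts. A box C/D snoRNA is recognised by a C box near its start and a D box near its end. The guides below are shown because their hosts are SNHG5, which was lower in treated cells, and ZFAS1 and SNHG19, which are among the most abundant members. Capitals mark the C box, searched as ATGATGA or GTGATGA in the first 25 bases, and the D box, searched as CTGA in the last 24 bases, both on the RNA strand alone. SNORD50B lies in SNHG5 at chr6:85677589-85677658 on the minus strand, SNORD12B and SNORD12C lie in ZFAS1 at chr20:49280319-49280409 and chr20:49278940-49279028 on the plus strand, and SNORD60 lies in SNHG19 at chr16:2155023-2155105 on the minus strand (GENCODE transcripts, GRCh38).
SNORD50B: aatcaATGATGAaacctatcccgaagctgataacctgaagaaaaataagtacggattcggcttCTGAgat
SNORD12B: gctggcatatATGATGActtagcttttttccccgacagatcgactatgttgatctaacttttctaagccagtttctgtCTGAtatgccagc
SNORD12C: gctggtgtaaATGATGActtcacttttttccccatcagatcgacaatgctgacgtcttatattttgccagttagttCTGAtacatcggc
SNORD60: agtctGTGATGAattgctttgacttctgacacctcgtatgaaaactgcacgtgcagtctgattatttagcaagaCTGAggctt
Both boxes were found in 21 of 32 SNORD sequences inside members (65.6%), against 62.5% of 288 SNORD sequences in the annotation. The 32 are not all SNORD records of the members, since sequences were looked up by name. Those of the 10 GAS5 records, SNORD50A and SNORD87 were not found. Of the 32, 15 are SNORD114 sequences of the single host SNHG24. They were found in 0 of 19 SNORA sequences inside members, against 0 of 149 SNORA sequences in the annotation. Among the SNORA sequences inside members, SNORA16A and SNORA71B each enter with overlapping sequences of different length.

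Host RNAs are also known for a terminal oligopyrimidine tract at their 5′ end, a C followed by a run of C and T that ribosomal protein mRNAs share. RefSeq promoter sequences (GRCh38.p14) matched 30 members, and 22 of these had a start site within 50 bases of a transcript start in the files. A tract, counted as C at the first transcribed base followed by at least 4 C or T on the transcript strand, was present in 5 of 17 snoRNA hosts used (29.4%) and 0 of 5 other members. It was present in 4.07% of all 35116 promoters and in 54.3% of 81 ribosomal protein promoters. TATAAA, searched on both strands of the 250 bases before and 50 bases after the start, was found in 6 of 22 members (27.3%) and in 11.5% of all promoters. A tract holds no A, so it cannot contain TATAAA, but bases at the end of a tract can be part of that motif. The 5 windows with a tract, from 20 bases before to 30 bases after the boundary, are shown with the tract in capitals, because they show how the tract differs in length among hosts. They lie at chr6:85678704-85678753 (SNHG5, minus strand), chr16:2155329-2155378 (SNHG19, minus strand), chr20:49278622-49278671 (ZFAS1, plus strand), chr5:9546180-9546229 (SNHG18, plus strand) and chr1:28581844-28581893 (SNHG12, minus strand).
SNHG5: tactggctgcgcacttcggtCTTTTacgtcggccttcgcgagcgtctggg
SNHG19: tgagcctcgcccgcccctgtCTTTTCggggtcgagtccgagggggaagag
ZFAS1: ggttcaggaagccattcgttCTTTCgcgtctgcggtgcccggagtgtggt
SNHG18: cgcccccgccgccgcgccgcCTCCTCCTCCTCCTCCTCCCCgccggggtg
SNHG12: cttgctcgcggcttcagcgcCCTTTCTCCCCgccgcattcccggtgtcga
The log2 ratios of the tract-bearing hosts lay on both sides of 0: -0.29 for SNHG5, -0.20 for SNHG19, 0.05 for ZFAS1, 0.05 for SNHG18 and -0.02 for SNHG12. The ZFAS1 window lies at the start of its record NR_036659 alone, and the other ZFAS1 records start upstream. NR_036659 had 112 FPKM in treated and 91.1 FPKM in untreated cells, a log2 ratio of 0.30, with overlapping deposited bounds.

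MALAT1 and NEAT1, neighbouring single-exon genes of nuclear bodies, had log2 ratios of opposite sign. MALAT1 (chr11:65497762-65506512, hg38, plus strand, 1 exon of 8751 bases) had 40.1 FPKM in treated and 54.5 FPKM in untreated cells. This is a ratio of 0.737 (0.699 to 0.777), or -0.43 on the log2 scale, from an estimated 2514 fragments in treated and 3185 in untreated cells. The bounds that the authors deposited with these values did not overlap. They ran from 38.5 to 41.7 FPKM in treated and from 52.5 to 56.4 FPKM in untreated cells. For the other members with an interval below 1 (SNHG5, SNHG6 and the main transcripts of SNHG3 and LINC00152), the deposited bounds overlapped. Of 1187 genes with at least 1000 fragments in each library, none other than MALAT1 had a log2 ratio as low, and 2 were as far above 0. NEAT1 had 24.5 FPKM in treated and 22.7 FPKM in untreated cells, a ratio of 1.08 (0.970 to 1.20). Its short form, NR_028272, had 23.9 FPKM in treated and 22.0 FPKM in untreated cells. Its long form, NR_131012, the scaffold of paraspeckles, was listed at 0.619 FPKM in treated and 0.720 FPKM in untreated cells, with overlapping bounds. The short form lies within the long form, so the division between them is an estimate of the authors' software.

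**Figure D3:**
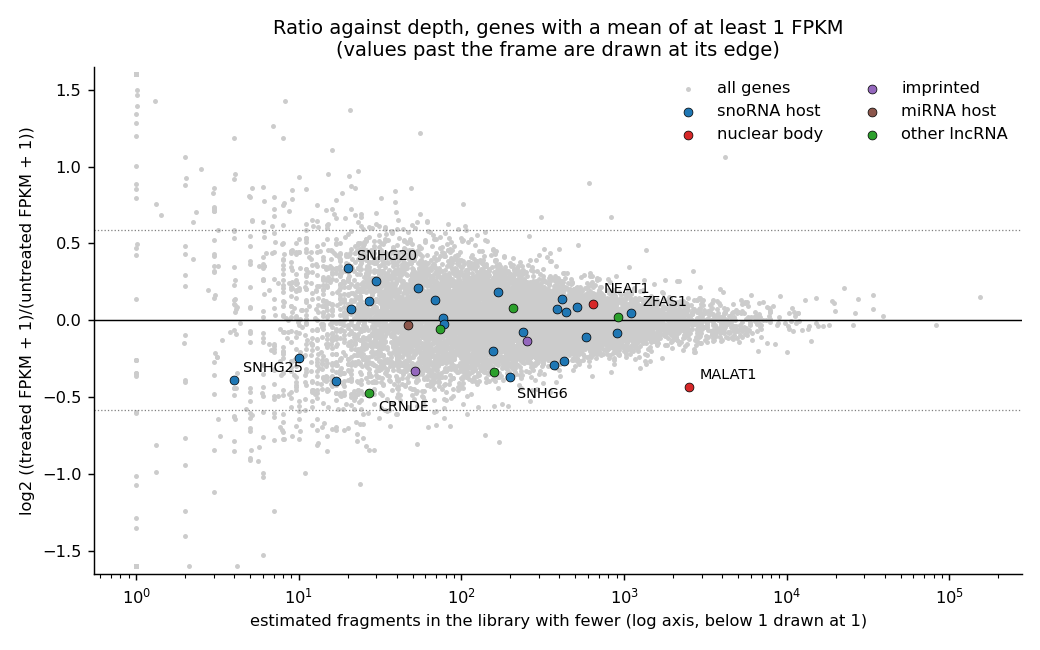
Log2 ratio of treated over untreated, after adding 1 FPKM to each, against the estimated fragments in the library with fewer (log axis), for the 11668 genes above the floor (grey) and the members (coloured by role). Dotted lines mark 1.5-fold, inside which every member above the floor lies. MALAT1 stands apart at 2514 fragments and -0.43, while SNHG25, CRNDE and SNHG20 lie where few fragments spread the values.

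Imprinted members were lower in treated cells by less than counting error. MEG3, expressed from the maternal allele, had 19.9 FPKM in treated and 22.0 FPKM in untreated cells (ratio interval 0.761 to 1.08). H19, also maternally expressed and the host of miR-675, had 3.28 FPKM in treated and 4.38 FPKM in untreated cells (0.514 to 1.11). KCNQ1OT1, a paternally expressed antisense RNA of 91671 bases, was listed at 0.184 FPKM in treated and 0.221 FPKM in untreated cells, and although below the floor it had 115 and 128 fragments in treated and untreated cells (0.640 to 1.08). Other genes of these domains were CDKN1C, a cell cycle inhibitor of the KCNQ1OT1 domain, at 15.4 FPKM in treated and 18.8 FPKM in untreated cells (0.667 to 1.01), and RTL1, beside MEG3, at 0 in treated and 0.0366 FPKM in untreated cells. IGF2, the growth factor gene imprinted together with H19, had 38.0 FPKM in treated and 41.7 FPKM in untreated cells, and its interval lay below 1 (0.844 to 0.986).

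Of the 3 members known mainly as microRNA hosts, MIR22HG, MIR31HG and DLEU2, only MIR22HG was above the floor. It had 2.71 FPKM in treated and 2.79 FPKM in untreated cells, from 49 and 47 fragments in treated and untreated cells. MIR31HG was at 0.209 FPKM in treated and 0.224 FPKM in untreated cells, on 3 fragments each. DLEU2, which carries the miR-15a and miR-16-1 cluster, was at 0.167 FPKM in treated and 0.454 FPKM in untreated cells, on 3 and 7 fragments in treated and untreated cells. Its exons share 12.5% of their bases with TRIM13 on the opposite strand, at 3.35 FPKM in treated and 3.98 FPKM in untreated cells. The mature microRNAs of these hosts (RefSeq, GRCh38.p14) are shown so that their seeds can be compared. The MIR22, MIR31, MIR15A and MIR16-1 records were listed at 0 in both libraries, and a host value does not measure a mature microRNA. Capitals mark the seed, bases 2 to 8. They lie at chr17:1713914-1713935 (miR-22-3p), chr9:21512158-21512178 (miR-31-5p), chr13:50049167-50049188 (miR-15a-5p) and chr13:50049027-50049048 (miR-16-5p), all on the minus strand.
miR-22-3p: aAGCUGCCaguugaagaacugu
miR-31-5p: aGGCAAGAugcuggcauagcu
miR-15a-5p: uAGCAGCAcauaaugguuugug
miR-16-5p: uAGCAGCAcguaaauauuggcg
The last 2, both carried by DLEU2, share a seed, while those of miR-22-3p and miR-31-5p differ from it and from each other.

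Among the other lncRNAs, LINC00152 and CRNDE had the lowest ratios. LINC00152, an lncRNA at chr2:87455455-87521511 (hg38, plus strand), had 66.6 FPKM in treated and 84.3 FPKM in untreated cells. The ratio was 0.790 (0.635 to 0.986), with overlapping deposited bounds for the main transcript of LINC00152. Its near-identical copy MIR4435-2HG, which can share its reads, had 114 FPKM in treated and 134 FPKM in untreated cells, a ratio of 0.850 (0.730 to 0.988), so both were lower. CRNDE, first described in colorectal tumours, had 4.87 FPKM in treated and 7.14 FPKM in untreated cells. At -0.47 this was the lowest log2 ratio of the members above the floor, but it rests on 27 and 40 fragments in treated and untreated cells, and its interval was 0.397 to 1.12. TUG1 had 18.7 FPKM in treated and 18.4 FPKM in untreated cells (0.926 to 1.11). OIP5-AS1, the human counterpart of the conserved lncRNA Cyrano, had 19.7 FPKM in treated and 18.6 FPKM in untreated cells (0.877 to 1.28). PVT1, downstream of MYC, had 6.95 FPKM in treated and 7.28 FPKM in untreated cells (0.683 to 1.34).

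HOTAIR, the lncRNA of the HOXC cluster, was listed at 0 in treated and 0.00845 FPKM in untreated cells, where 3 fragments would be worth 0.188 FPKM in treated and 0.202 FPKM in untreated cells. SNHG22, which carries SCARNA17, was listed at 0 in both libraries, and 3 fragments would be worth 0.287 FPKM in treated and 0.308 FPKM in untreated cells. HOXC11, which overlaps HOTAIR, and the nearby HOXC12 were at 0.0737 and 0 FPKM in treated cells and both at 0 in untreated cells.

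Below the level of genes, 17 members had more than 1 transcript record and 59 of 88 records averaged at least 1 FPKM. The deposited bounds of the 2 libraries did not overlap for 2 records that were higher in treated cells (3.39%) and 4 that were lower (6.78%), against 6.79% and 6.57% of 16888 records of all genes. MEG3 held 3 of these 6 records. Its NR_046466 was listed at 6.46 FPKM in treated and 0.877 FPKM in untreated cells, NR_046471 at 0 in treated and 7.02 FPKM in untreated cells, and NR_046465 at 0.141 FPKM in treated and 2.29 FPKM in untreated cells. These MEG3 records share their start and end bases and are close to each other in length, with 1478 bases for NR_046466 and 1516 for NR_046471.

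TUG1 likewise had NR_002323 at 8.45 FPKM in treated and 5.75 FPKM in untreated cells and NR_110492 at 0.849 FPKM in treated and 1.84 FPKM in untreated cells, while its gene total was nearly the same in both. In SNHG8 the 274-base NR_034011 was at 18.5 FPKM in treated and 9.38 FPKM in untreated cells, and NR_034010 at 2.003 FPKM in treated and 9.46 FPKM in untreated cells, each pair with overlapping bounds. SNHG10 had its spliced record NR_001459 at 7.12 FPKM in treated and 5.57 FPKM in untreated cells and its unspliced NR_003138 at 1.33 FPKM in treated and 2.79 FPKM in untreated cells, again with overlapping bounds. Such records share most of their exons, so their values depend on how the software assigned shared fragments.

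**Figure D4:**
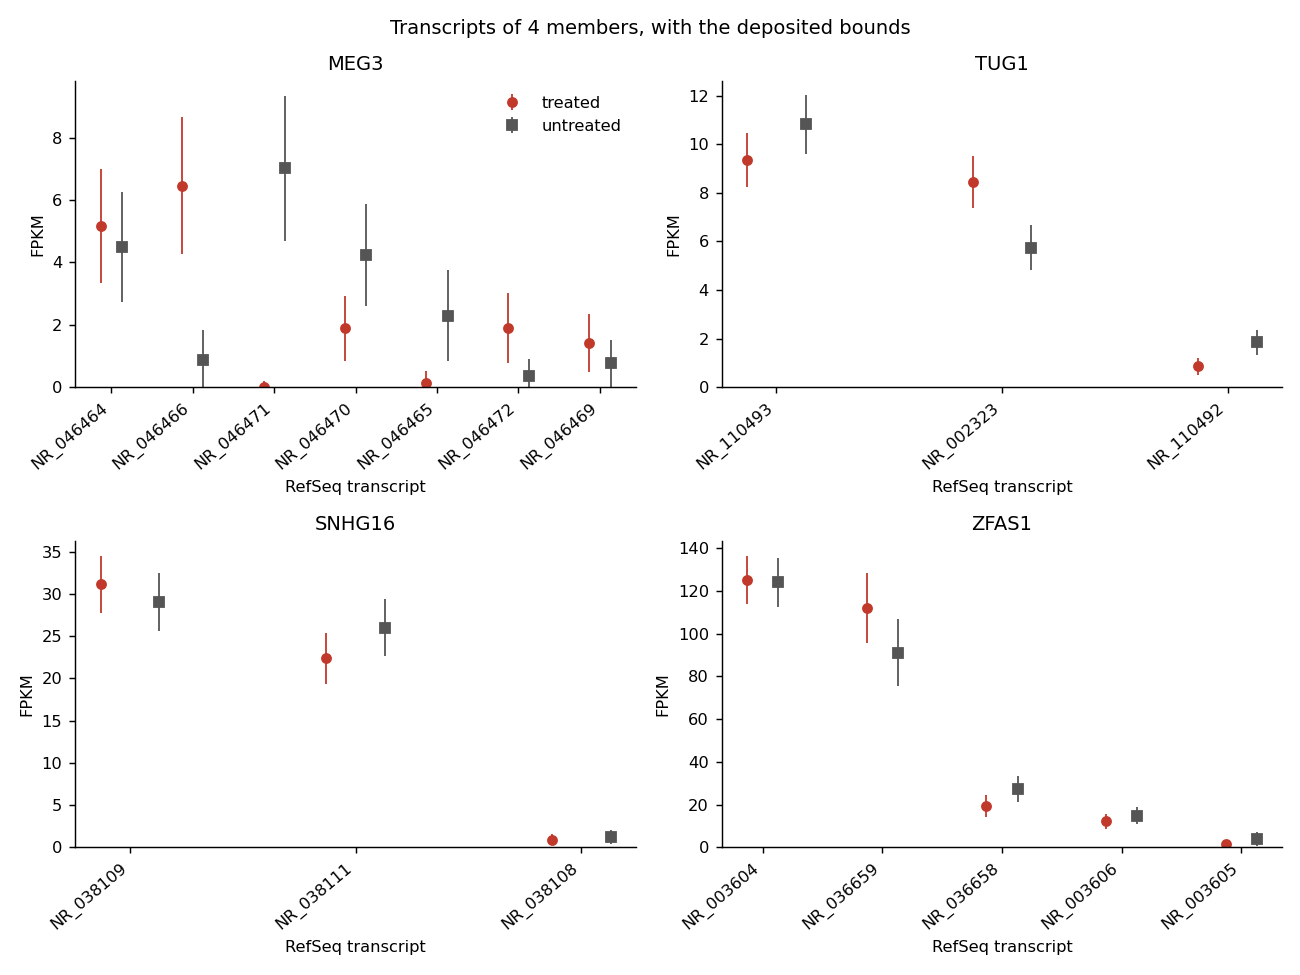
FPKM of the RefSeq transcripts of MEG3, TUG1, SNHG16 and ZFAS1 that averaged at least 1 FPKM, in treated (red circles) and untreated (grey squares) cells, with the deposited lower and upper bounds as bars. In MEG3 the main records exchange places between the libraries, with NR_046471 at 0 in treated and 7.02 FPKM in untreated cells, and in SNHG16 and ZFAS1 all bounds overlap.

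The proteins that work with these RNAs were set beside them. Of 19 proteins of snoRNA particles and their assembly above the floor, 13 were higher and 6 lower in treated cells, with a median log2 ratio of 0.06. The counting interval lay above 1 for 5 and below 1 for 0, against 6.43% and 6.02% of all genes. SHQ1, an assembly chaperone of dyskerin, had 6.26 FPKM in treated and 4.35 FPKM in untreated cells (1.06 to 1.92). RUVBL2, an ATPase of the assembly complex R2TP, had 126 FPKM in treated and 102 FPKM in untreated cells (1.12 to 1.34). ZNHIT3, an assembly factor of box C/D particles, had 37.8 FPKM in treated and 43.8 FPKM in untreated cells (0.715 to 1.04).

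Protein-coding genes that host snoRNAs in their introns were mostly slightly lower: 11 of 34 were higher and 23 lower, with a median log2 ratio of -0.04, and the interval lay above 1 for 3 and below 1 for 15, against 6.43% and 6.02% of all genes, or 6.84% and 7.15% of those with at least 100 fragments in each library. Most are ribosomal protein genes with many fragments, where counting error is small. TAF1D, a subunit of the RNA polymerase I factor SL1, had 37.5 FPKM in treated and 47.3 FPKM in untreated cells (0.677 to 0.925). RABGGTB, a prenyltransferase subunit, had 27.2 FPKM in treated and 33.8 FPKM in untreated cells (0.679 to 0.947). RPS2 had 2587 FPKM in treated and 2836 FPKM in untreated cells (0.891 to 0.934). When hosts outside the rule were instead found by a small RNA record inside their range, 146 were above the floor, 65 higher and 81 lower, with a median of -0.01, and with intervals above 1 for 15 and below 1 for 28, against the same shares.

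Of 14 NMD factors, 6 were higher and 8 lower, with a median log2 ratio of -0.03 and intervals above 1 for 1 and below 1 for 2, against 6.43% and 6.02% of all genes. SMG9, a regulator of the SMG1 kinase, had 23.1 FPKM in treated and 19.5 FPKM in untreated cells (1.01 to 1.39). SMG6, the NMD endonuclease, had 9.35 FPKM in treated and 11.1 FPKM in untreated cells (0.728 to 0.978). Of 17 paraspeckle proteins, 9 were higher and 8 lower, with a median of 0.04 and intervals above 1 for 4 and below 1 for 0, against those same shares. HNRNPM, EWSR1 and NUDT21 had the largest ratios of this list. HNRNPM, a splicing factor, had 95.5 FPKM in treated and 83.5 FPKM in untreated cells (1.06 to 1.23), and EWSR1 had 68.0 FPKM in treated and 60.3 FPKM in untreated cells (1.04 to 1.23). NUDT21, a cleavage factor subunit, had 42.4 FPKM in treated and 38.4 FPKM in untreated cells (1.02 to 1.20).

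Of the 34 members above the floor, 10 share exon bases with another gene. SNHG3, SNHG4 and SNHG20 share bases with a gene on their own strand, and reads of those bases cannot be told apart by strand. For the members that share bases with a gene on the opposite strand, it is unknown whether such reads were told apart, because the labels give no strand setting. ZFAS1 shares 42 exon bases with ZNFX1 on the opposite strand, which had 21.7 FPKM in treated and 17.6 FPKM in untreated cells (1.11 to 1.38). SNHG12 shares 8 bases with TRNAU1AP, at 7.82 FPKM in treated and 6.92 FPKM in untreated cells. KCNQ1OT1 overlaps KCNQ1, at 0.193 FPKM in treated and 0.156 FPKM in untreated cells. SNHG6 shares 25.2% of its exon bases with MCMDC2, and H19 shares 33.2% with HOTS, each of which was below 0.1 FPKM in both libraries. SNHG7 shares 4.67% with FAM69B, at 9.47 FPKM in treated and 9.56 FPKM in untreated cells. GAS5 shares 6.49% with GAS5-AS1, at 0.534 FPKM in treated and 2.04 FPKM in untreated cells.

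Of 20 genes listed as neighbours of members, near or in the same domain, 14 were above the floor, with 7 higher and 7 lower. The interval lay above 1 for 1, ZNFX1, and below 1 for 2, IGF2 and MYC, against 6.43% and 6.02% of all genes. MYC, a growth-promoting transcription factor gene of the PVT1 region, had 77.9 FPKM in treated and 85.7 FPKM in untreated cells (0.840 to 0.984). SLC3A2, an amino acid transporter chain 124 bases from SNHG1, had 81.0 FPKM in treated and 87.3 FPKM in untreated cells, and WDR74, also near SNHG1, had 25.4 FPKM in treated and 22.9 FPKM in untreated cells. EPB41L4A, 117 bases from EPB41L4A-AS1, had 1.43 FPKM in treated and 1.04 FPKM in untreated cells. IRX5, a transcription factor 2010 bases from CRNDE, had 1.48 FPKM in treated and 1.02 FPKM in untreated cells. OIP5, near OIP5-AS1, had 15.4 FPKM in treated and 17.2 FPKM in untreated cells, MORC2, near TUG1, had 20.5 FPKM in treated and 19.9 FPKM in untreated cells, and ZBTB37, 368 bases from GAS5, had 0.920 FPKM in treated and 1.04 FPKM in untreated cells. Each of the last 7 genes had an interval that held 1.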

How the data were processed

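Per the labels, total RNA of CHME3 cells was made into TruSeq libraries, 1 per condition, grouped by the treatment label. TopHat and Cuffdiff are named with hg38 in the submitters' processing notes, without versions. The authors deposited FPKM values per RefSeq transcript, with lower and upper bounds, and these are other than raw counts. Both files name Cufflinks in each line and list 56891 transcripts.

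FPKM was summed per gene. Fragments were recovered from the deposited bounds as the square of 2 × FPKM over the distance to the upper bound. For genes with several transcripts they came from a fitted line that relates fragments per FPKM to length, based on transcripts of at least 1000 bases and at least 10 fragments, leaving out those more than 3% off the line. In single-transcript genes the line gave a median of 1.02 times the recovered fragments in both libraries. The measure was log2((treated FPKM + 1)/(untreated FPKM + 1)), which understates ratios of low genes, where the mean was at least 1 FPKM. Ratio intervals are exact conditional binomial ones at 95%, computed from rounded fragments (scipy 1.17.1). They were run on simulated Poisson counts, the error that they assume, which checks the computation and not these data. Genes with few fragments were left out of the simulation. The intervals cover counting error alone, not the estimation of fragments, isoform assignment or PCR duplicates.

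The members and lists were chosen with earlier results of these data known. Every member is named. Some genes outside the rule are not reported here. From each list of proteins, and from genes near members, up to 3 with the largest absolute log2 ratio are named, and genes of the last list that overlap a member or lie within 20000 bases of it. MIR4435-2HG, IGF2, MYC and the genes that share exon bases with members outside that list were added after their values were seen. Alternatives were other pseudocounts, floors, transcripts and scalings.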

Additional observations from a re-analysis of the deposited data

How the results depend on the processing

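The counts and medians were recomputed under 12 other settings, of which 3 were added after seeing the data (centring on genes of like length, leaving out members that share exon bases or have a near-identical copy, and members with at least 100 fragments). With the most abundant transcript in place of the gene sum, 1 member passed 1.5-fold higher (SNHG8, at 0.91) and 1 passed 1.5-fold and 2-fold lower (CRNDE, at -1.03), against 0 in each case for gene sums. The share of all genes past these sizes on the transcript measure was not computed, so these counts have no background beside them. In the 19 members with at least 100 fragments, 9 were higher and 10 lower, since fewer members entered. Over 330 recomputed ratios of single members, 5 moved past the distance from the centre to the end of their counting interval and 0 of those whose interval left out 1 changed sign. The sign held in every setting run for 28 of 34 members and not for MEG3, SNHG8, SNHG10, SNHG16, SNHG21 and TUG1. Much of this was fixed in advance. Another floor leaves a member's ratio unchanged, and another pseudocount cannot change its sign. For members with a single transcript, the most abundant transcript equals the gene sum. MALAT1 stayed between -0.44 and -0.40, SNHG6 between -0.37 and -0.29, LINC00152 between -0.40 and -0.26, SNHG5 between -0.29 and -0.25, and SNHG3 between -0.29 and -0.23. No paired analysis was possible because there was 1 library per condition. Depth limits 15 members, which had fewer than 100 fragments in a library.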

Other observations

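Around the members, 38 genes outside the rule averaged at least 1 FPKM and overlapped a member or lay within 20000 bases of it. The counting interval lay above 1 for 4 of them and below 1 for 3, against 6.43% and 6.02% of all genes. The following were chosen after their values were seen. FRMD8, 9274 bases from NEAT1 on the same strand, had 9.47 FPKM in treated and 7.18 FPKM in untreated cells (1.08 to 1.61). WDR81, 251 bases from MIR22HG, had 6.20 FPKM in treated and 4.84 FPKM in untreated cells (1.06 to 1.55). STX5, a Golgi syntaxin gene near SNHG1, had 39.4 FPKM in treated and 33.6 FPKM in untreated cells (1.02 to 1.35).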
